A study of Rattus norvegicus with 6 samples.

Results

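Ion channels, bicarbonate and other ion exchangers, carbonic anhydrases, sodium pump subunits and aquaporins were compared between the pancreases of control-diet rats and ethanol-diet rats. The genes were taken by the families of their symbols, each read on its brightest probe set annotated to 1 gene, and kept where the mean intensity over all 6 arrays was at least 300. This gave 89 genes of the 134 with such a symbol, out of 10411 genes with a probe set of their own. The mean level over both diets thus chose the genes, and the difference between diets did not, so that levels are a description here and the diets can be compared. The genes just inside the limit were Scnn1a, a subunit of the epithelial sodium channel, with a mean of 303, and the voltage-gated potassium channel Kcnh6, with 314.5. Those just outside were the potassium channel subunit Kcns3, with 291, and the carbonic anhydrase Car5a, with 282.

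Total RNA of pancreas tissue was labelled with biotin and hybridised to single-colour arrays. Per the labels there were 3 replicates on the control diet and 3 on the ethanol diet, each read on 1 array. The labels do not state whether a replicate was 1 rat, and control rats and ethanol rats stand for these replicates below. The strain, sex and age of the rats, the composition of the diets and the duration of feeding are not stated in the labels used, beyond the title's word chronic. The number of arrays limits the precision.

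The exocrine pancreas secretes enzymes from acinar cells and a bicarbonate-rich fluid from duct cells. In ducts, carbonic anhydrase makes bicarbonate, basolateral cotransporters and exchangers load it into the cell, and apical chloride channels and anion exchangers pass it to the lumen. The sodium pump, potassium channels and cation-chloride cotransporters keep up the gradients that drive this, and water follows through aquaporins. Potassium channels also set the membrane voltage of islet cells, nerves and vessels, which the same tissue sample holds.

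Facts of the arrays as a whole are these. Arrays had nearly 1 distribution, with medians of 543 or 544. Pairs of arrays correlated over probe sets (not independent of each other) at r of 0.925 to 0.944 where the diet was shared and 0.913 to 0.929 where it was not. Acinar markers were bright on every array, which matches the labelled tissue. The summed intensity of the 10 measured acinar markers of 12 listed lay from 1221785 to 1236449 in control rats and from 1217833 to 1269866 in ethanol rats. Diets were compared with limma, a linear model moderated across probe sets, on log2(intensity + 50), over the 9522 probe sets above an intensity filter. Log2 changes are ethanol minus control and understate the change of dim genes. Of these probe sets 33 passed at an adjusted p under 0.05, 0.347% of those tested, with 9 higher and 24 lower in ethanol rats. Leaving out control replicates 1, 2 or 3 gave counts of 3, 4 or 2, and leaving out ethanol replicates 1, 2 or 3 gave 43, 10 or 2.

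None of the channel and transporter genes passed this test. Of the 89 genes, 70 lay above the filter and were tested, and limma passed 0 of them, against 0.347% of all tested probe sets. The smallest p-values in each direction belonged to higher values of Clcn4, an endosomal chloride-proton exchanger, of Atp1b1, the beta 1 subunit of the sodium pump, and of Car4, a carbonic anhydrase anchored to the cell surface, and lower values of the water channel Aqp8. At an unadjusted limma p under 0.05, 11 genes were higher in ethanol rats (15.7% of those tested, against 8.01% of all tested probe sets) and 2 were lower (2.86% against 10.3%). Both directions together made 18.6% of the genes tested, close to the 18.3% of all tested probe sets. Without control replicate 2 the count was 8, with 6 higher and 2 lower, and the share of all tested probe sets fell as well, to 12.9%.

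The groups of 3 arrays did not overlap for 13 of the 70 tested genes, or 18.6%, against 25.5% of all tested probe sets. Of the 13, 10 were higher in ethanol rats and 3 lower, where all tested probe sets gave 11.1% and 14.4%. Of the 89 genes, 9 had a mean under 300 in a diet group and came in through the other group, so that the choice of genes favoured a difference there. Over the remaining 80 genes the median log2 change was 0.11, against -6.73e-05 over all tested probe sets. Of these 80 genes, 53 had a change above 0, or 66.2%, against 50% of tested probe sets. A change smaller than 0.5 in size was found in 66 of the 80 genes and in 86.4% of all tested probe sets. The median SD of log2 values within a diet was 0.33 for the 89 genes and 0.22 for the tested probe sets. These medians are not at like intensities, since 19 of the 89 genes lay below the filter that all tested probe sets passed.

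**Figure D1:**
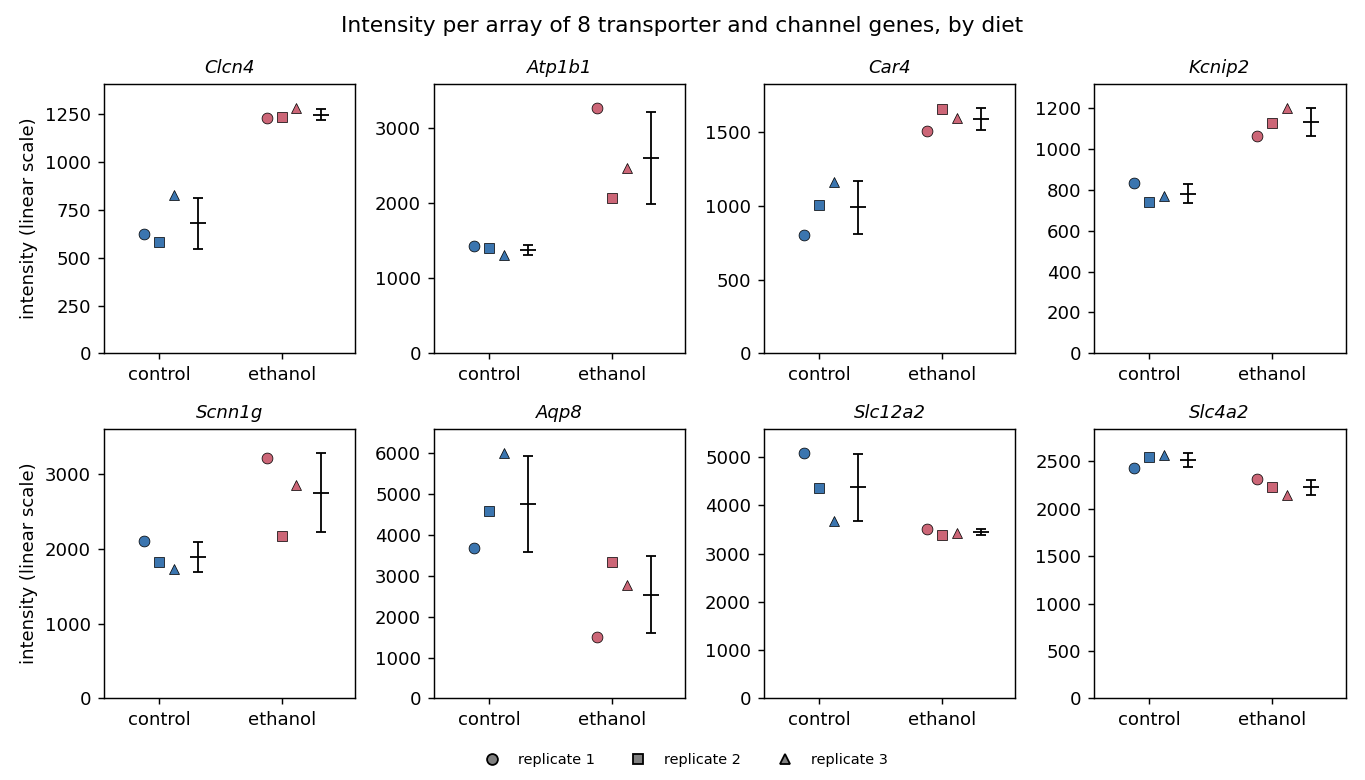
Intensity on each array (y axis, linear scale) of 8 channel and transporter genes in control and ethanol rats, with the marker shape giving the replicate and the bar the mean ± SD of 3 arrays. In all 8 panels the diets do not overlap, with Clcn4, Atp1b1, Car4, Kcnip2 and Scnn1g higher and Aqp8, Slc12a2 and Slc4a2 lower in ethanol rats; none of the 8 passed limma's test at an adjusted p under 0.05.

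Ethanol replicate 1 carried more of the high values than any other array. Of the 89 genes, 29 were highest on it, or 32.6%, while 21.3% of all tested probe sets were. The median deviation of the 89 genes from their own mean over arrays was 0.21 on this array, and from -0.11 to 0.056 on the other 5. Without it the median log2 change of the 89 genes was 0.095 (0.11 with all arrays), and 7 genes were higher and 2 lower at an unadjusted limma p under 0.05. Of all tested probe sets, 17.3% then had such a p. Without ethanol replicate 2 the median was 0.22, and 13 genes were higher and 2 lower, beside 17.9% of all tested probe sets. The 32.6% and the medians cover all 89 genes, with the 19 below the filter and the 9 that came in through 1 diet group. The 32.6% and the 21.3% are thus not at like intensities.

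**Figure D2:**
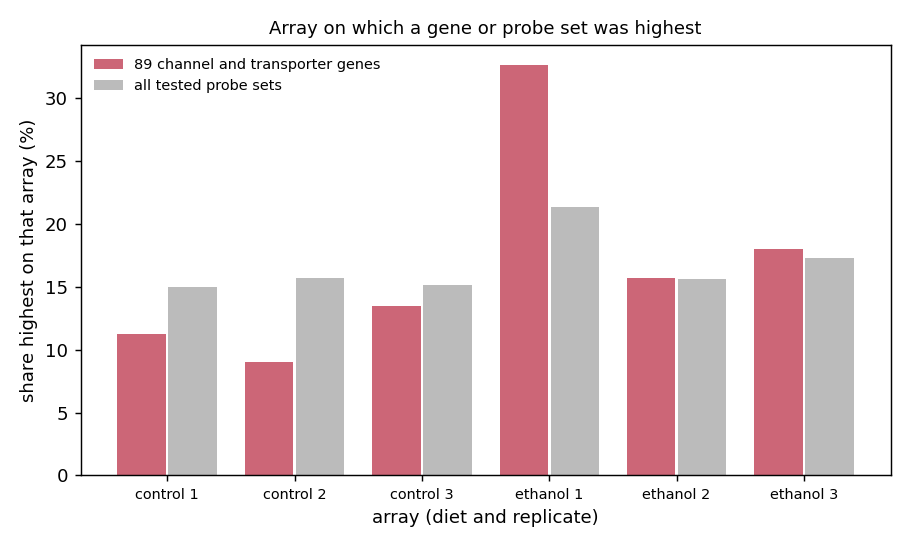
Share of genes or probe sets (y axis, percent) that had their highest value on each of the 6 arrays (x axis), for the 89 channel and transporter genes and for all tested probe sets. Ethanol replicate 1 held 32.6% of the 89 genes and 21.3% of the tested probe sets. The 89 genes include 19 below the intensity filter that the tested probe sets passed.

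The promoters of 3 genes to which the comparison gave large differences are shown for the context of their transcription. The set of RefSeq promoters at hand, on the GRCr8 assembly, held 66 of the 89 genes, and Atp1b1 was not among them. The sequences run over the 250 bases before the annotated start, 5′ to 3′ on the gene's strand. Clcn4 lies on the plus strand at chrX:27290689-27290938, Car4 on the plus strand at chr10:70325108-70325357 and Aqp8 on the plus strand at chr1:187424193-187424442. Capitals mark matches, on either strand, to any of the 5 motifs searched.
Clcn4: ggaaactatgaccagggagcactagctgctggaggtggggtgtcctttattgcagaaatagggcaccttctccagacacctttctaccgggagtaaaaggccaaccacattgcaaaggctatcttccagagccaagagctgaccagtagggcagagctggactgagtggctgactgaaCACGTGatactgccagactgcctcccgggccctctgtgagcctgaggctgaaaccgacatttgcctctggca
Car4: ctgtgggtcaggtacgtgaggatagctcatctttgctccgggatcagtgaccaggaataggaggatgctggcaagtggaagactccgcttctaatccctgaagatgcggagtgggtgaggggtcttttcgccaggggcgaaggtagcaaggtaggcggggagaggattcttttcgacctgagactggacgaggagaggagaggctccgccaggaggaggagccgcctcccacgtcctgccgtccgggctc
Aqp8: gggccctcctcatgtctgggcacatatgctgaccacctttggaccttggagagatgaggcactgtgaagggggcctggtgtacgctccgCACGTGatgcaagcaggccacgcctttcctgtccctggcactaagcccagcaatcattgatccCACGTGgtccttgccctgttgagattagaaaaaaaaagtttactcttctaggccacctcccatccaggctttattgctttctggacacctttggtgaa

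The motifs searched were TATAAA (the TATA box), CCAAT (the CCAAT box), GGGCGG (the GC box), CACGTG (an E-box) and TGACGTCA (the cyclic AMP response element), and none of them overlapped another in these windows. Clcn4 held 1 E-box and Aqp8 held 2. Car4 held no match to the 5 motifs. CACGTG was present in 5.59% of all 33469 promoters at hand of this length and in 6.16% of those of protein-coding genes. Of the 66 promoters of this gene set 10 held it, or 15.2%. TATAAA was in 12.9% of all promoters, 12.1% of those of protein-coding genes and 4 of the 66 (6.06%). In the same order, CCAAT was in 34%, 35% and 18 of the 66 (27.3%). GGGCGG was in 30.5%, 38.9% and 36 of the 66 (54.5%), and TGACGTCA in 1.59%, 1.89% and 1 of the 66 (1.52%). A match is a description of the letters and not a binding site.

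Sodium pump subunits were represented by the beta subunits Atp1b1 and Atp1b3, which help to place the pump in the membrane. Atp1b1 read 1426, 1397 and 1303 in control rats and 3258, 2063 and 2461 in ethanol rats, so that all 3 ethanol arrays lay above all control arrays. The means were 1375 ± 64.3 and 2594 ± 609 (SD, n = 3), and the log2 change was 0.87 (SE 0.18, limma adjusted p = 0.0926). A dimmer probe set of Atp1b1 read 1058, 1213 and 1385 in control rats and 2695, 1353 and 2481 in ethanol rats, and there ethanol replicate 2 lay within the control range (log2 change 0.76, SE 0.26). Atp1b3 was at 1211 ± 197 and 1508 ± 288, and its groups overlapped (0.30, SE 0.19). Atp1b1 was called in the variants with a variance trend (limma adjusted p = 0.0319) and with a filter at the 60th percentile (limma adjusted p = 0.0482), and its adjusted p ran from 0.0319 to 0.258 over the alternatives. Those 2 variants called 242 and 130 probe sets in all.

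The Clcn family holds the muscle chloride channel Clcn1 and exchangers of endosomes and lysosomes. Clcn4 read 623, 585 and 831 in control rats and 1229, 1236 and 1283 in ethanol rats, the latter tightly grouped and all above the controls. The means were 679.7 ± 132 and 1249 ± 29.4 (SD, n = 3) and the log2 change 0.85 (SE 0.16, limma adjusted p = 0.0836), the smallest adjusted p among the 70 tested genes. It too was called with a variance trend (limma adjusted p = 0.0356) and with a filter at the 60th percentile (limma adjusted p = 0.0390), and its adjusted p ran from 0.0356 to 0.258 over the alternatives. Called beside it in those variants were 242 and 130 probe sets in all, Clcn4 included. The other 5 members had smaller differences. Clcn3 read 1490, 1374 and 1254 in control rats and 903, 1633 and 758 in ethanol rats, where replicate 2 was above the control range and the others below it (-0.38, SE 0.26). Its other probe sets gave -0.10 (SE 0.15) and -0.0037 (SE 0.16). Outside the rule for named genes, and chosen after their values were seen, Clcn5 (0.037), Clcn1 (-0.0056), Clcn6 (-0.087) and Clcn7 (-0.17) had log2 changes within 1 standard error of 0, with standard errors from 0.21 to 0.23.

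Carbonic anhydrases had log2 changes above 0 in all 9 genes with a mean above the limit of 300 (50% of all tested probe sets were above 0), with a median of 0.43. Under the limit, Car5a was at 0.14 (SE 0.55), and, chosen after their values were seen, Car1 was at 0.59 (SE 0.88) and Car6 at -0.91 (SE 0.45), both with values below 0. Of the 9, limma called 0 of the 8 tested (unadjusted p under 0.05 in 1, which was higher, against 18.3% of all tested probe sets). Car4 read 801, 1010 and 1162 in control rats and 1511, 1659 and 1601 in ethanol rats, with no overlap. Its means were 991 ± 181 and 1590.3 ± 74.6 (SD, n = 3) and the log2 change 0.67 (SE 0.17, limma adjusted p = 0.113). Car2, the cytosolic enzyme of duct cells and red cells, read 936, 1134 and 882 in control rats and 1468, 922 and 1812 in ethanol rats, where replicate 2 lay within the control range (0.45, 95% interval -0.11 to 1.01). Car11, a related protein without catalytic activity, was at 1506 ± 569 and 2247 ± 685 with overlapping groups (0.60, SE 0.33). Chosen after their values were seen, Car7 was at 0.43 (SE 0.23), while Car14 (0.075), Car5b (0.061) and Car8 (0.037) had standard errors from 0.14 to 0.20, and Car10, at 0.10 (SE 0.31), was below the filter. A dimmer probe set of Car5b, also below the filter, had the other sign, at -0.22 (SE 0.38). Red cells hold carbonic anhydrase, and all 4 measured erythroid markers of 10 listed were summed beside these genes. Their sum was 14330 to 21327 in control rats and 24546 to 31956 in ethanol rats (two-sided exact permutation p = 0.1, the smallest that 3 arrays against 3 can give, and 0.333 after adjustment over 10 marker lists). Of the 4, 3 were tested, and all 3 were higher at an unadjusted limma p under 0.05, against 8.01% of all tested probe sets. None of the 4 was at 0. Their part in the values of Car2 and Car4 was not tested. In such tissue samples, fewer cells of a type and less RNA per cell cannot be told apart.

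Car3, an isoform of fat and muscle, stood apart on 1 array. It read 441, 456 and 784 in control rats and 5342, 392 and 379 in ethanol rats, so that ethanol replicate 1 was far above and both others below all control values. Its log2 change of 0.77 (SE 0.88) became -0.44 without ethanol replicate 1. A dimmer probe set behaved alike, with 283, 322 and 213 in control rats and 1009, 229 and 189 in ethanol rats.

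The adipocyte markers were in part highest on that same array. Of 6 listed, 4 were measured, and their sum was 2347 to 2685 in control rats, and 4095, 2594 and 2270 in ethanol replicates 1, 2 and 3. Cfd, a secreted serine protease of fat cells, read 780, 663 and 856 in control rats and 1718, 1069 and 1079 in ethanol rats, highest on ethanol replicate 1 and above the control range on all 3 ethanol arrays (0.69, SE 0.21). The fatty acid carrier Fabp4 read 1846 on ethanol replicate 1 and 880 to 1450 on the other 5 arrays. Lep, the gene of leptin, was also highest there at 314, whereas Plin1, a coat protein of lipid droplets, read 217 on that array and up to 259 in control rats. None of the 4 was at 0, and their part in the value of Car3 was not tested.

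**Figure D3:**
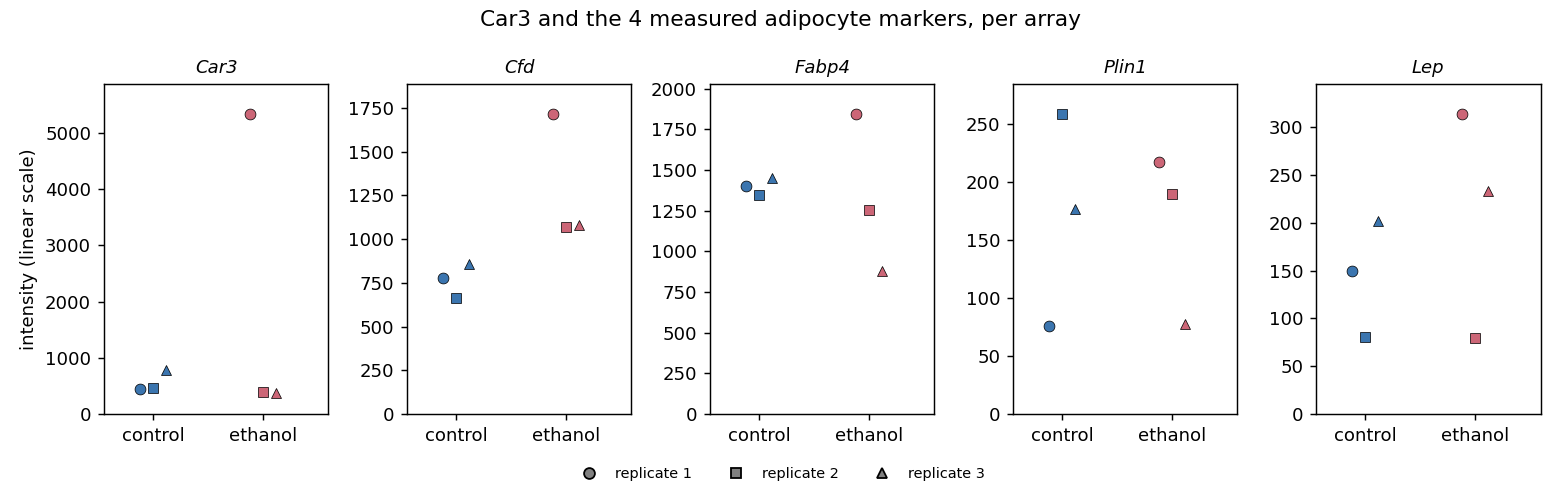
Intensity on each array (y axis, linear scale) of the carbonic anhydrase Car3 and of the 4 measured adipocyte markers in control and ethanol rats, with the marker shape giving the replicate. Ethanol replicate 1 is the highest array for Car3 (5342), Cfd (1718), Fabp4 (1846) and Lep (314), and not for Plin1 (217).

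Bicarbonate transporters and anion exchangers of the Slc4 family gave small differences of both signs, and limma called 0 of 4 tested, against 0.347% of all tested probe sets (unadjusted p under 0.05 in 1, which was higher, against 18.3%). Slc4a2, an exchanger of chloride for bicarbonate, read 2431, 2545 and 2563 in control rats and 2309, 2225 and 2147 in ethanol rats. The groups did not overlap but lay close together (log2 change -0.17, SE 0.13, 95% interval -0.47 to 0.12). Slc4a4, the sodium-bicarbonate cotransporter of duct cells, was at 841 ± 85.1 and 785.7 ± 31.5 (SD, n = 3), with overlap and a 95% interval of -0.41 to 0.23. Its log2 change was -0.089, while a dimmer probe set gave 0.030 (SE 0.17). Slc4a7, another sodium-bicarbonate cotransporter, read 377, 479 and 555 in control rats and 588, 666 and 658 in ethanol rats, without overlap (0.41, SE 0.17, limma adjusted p = 0.243). On a dimmer probe set of Slc4a7, below the filter, the groups overlapped (0.25, SE 0.16).

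Slc4a1, the anion exchanger of red cells, was at 1309 ± 482 and 1434 ± 203 on its brighter probe set (0.18, SE 0.26). Its other probe set was far dimmer and below the filter, with 43, -9 and 114 in control rats and 238, 233 and 118 in ethanol rats, without overlap. The erythroid markers given above were higher on the ethanol arrays, and their part in this gene was not tested. Chosen after its values were seen, Slc4a1ap is an adaptor that shares the name but is no transporter. It was below the filter, as was Slc4a3, with log2 changes of 0.22 (SE 0.34) and 0.25 (SE 0.37). Both are among the 9 genes that came in through 1 diet group.

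Of the Slc26 anion exchangers, 3 lay above the limit of 300. Slc26a8, known from testis, read 1588, 1221 and 1088 in control rats and 1081, 1556 and 729 in ethanol rats, with overlap (-0.25, SE 0.27). Slc26a5, the motor protein prestin of the inner ear, read 316, 192 and 405 and then 766, 513 and 333, also with overlap (0.71, SE 0.32, limma adjusted p = 0.284). Outside the rule, Slc26a1 was below the filter at 0.10 (SE 0.37).

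Among sodium-proton exchangers, which extrude acid, Slc9a2 read 390, 381 and 632 in control rats and 663, 646 and 817 in ethanol rats, without overlap but with control replicate 3 close to the ethanol range (0.58, SE 0.21, limma adjusted p = 0.203). Slc9a8, an exchanger of the Golgi, was even in control rats at 845, 939 and 911 and spread in ethanol rats at 452, 746 and 1034 (-0.32, SE 0.26). Without ethanol replicate 1 the log2 change of Slc9a8 was -0.029. Slc9a5 was at 982 ± 44.4 and 1130 ± 302 (0.16, SE 0.20).

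Cation-chloride cotransporters gave 4 log2 changes below 0 and 1 above among 5 genes, with a median of -0.14, and limma called 0 of the 5, against 0.347% of all tested probe sets (unadjusted p under 0.05 in 0, against 18.3%). Slc12a2, which loads sodium, potassium and chloride across the basolateral membrane of secretory cells, read 5080, 4360 and 3680 in control rats and 3509, 3387 and 3433 in ethanol rats. The ethanol arrays lay just below the lowest control and scarcely differed among themselves (log2 change -0.33, SE 0.16, limma adjusted p = 0.314). Slc12a5, known as the potassium-chloride cotransporter of neurons, was at 653 ± 49.0 and 589 ± 44.6 with overlap (-0.14, SE 0.14). Slc12a9 was at 1445 ± 290.0 and 1812 ± 515 (0.30, SE 0.24). Chosen after their values were seen, the potassium-chloride cotransporter Slc12a7 (-0.14, SE 0.17) and the sodium-chloride cotransporter Slc12a3 (-0.083, SE 0.37) overlapped between diets.

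The summed intensity of duct cell markers was lower on the ethanol arrays, though the markers differed in direction. Of 10 listed, 8 were measured, with a sum of 72610 to 79290 in control rats and 59989 to 71448 in ethanol rats (two-sided exact permutation p = 0.1, the smallest possible, and 0.333 adjusted over 10 lists). Tff2, a secreted trefoil peptide that acinar cells can also make, supplied most of that sum, with 54519 to 62040 on the control diet and 44515 to 55872 on the ethanol diet. The membrane mucin Muc1 was also lower, at 8542 to 9442 and then 7234 to 7654. Log2 changes below 0, with overlap, were found for Epcam (-0.25, SE 0.16), Spp1 (-0.24, SE 0.20), Onecut1 (-0.16, SE 0.17) and Krt7 (-0.15, SE 0.26). Only Anxa3 and Krt19 had log2 changes above 0. The annexin Anxa3, which had the smallest p of the list, was higher without overlap, at 748 to 755 in control rats and 838 to 1189 in ethanol rats (0.35, SE 0.16). The keratin Krt19 read 142 to 252 in control rats and 174 to 357 in ethanol rats. Of the 7 tested, 0 reached an unadjusted limma p under 0.05, against 18.3% of all tested probe sets. None of the 8 was at 0, and their part in the Slc4, Slc12 and carbonic anhydrase values was not tested.

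The aquaporin with separated groups among those tested was Aqp8, which lies in the apical membrane of rat acinar cells. Aqp8 read 3670, 4582 and 5992 in control rats and 1505, 3343 and 2768 in ethanol rats, so that every ethanol array lay below every control array. The means were 4748 ± 1170 and 2539 ± 940.2 (SD, n = 3), with a log2 change of -0.94 (SE 0.31, 95% interval -1.64 to -0.23, limma adjusted p = 0.175). Without ethanol replicate 1 the log2 change was -0.61. The acinar markers summed above overlapped between diets, although the 8 digestive enzyme genes among them read from 109333 to 171742, the latter the highest value on any array. Dimmer acinar genes were the transcription factor Ptf1a, at 8759 to 10111 in control rats and 12259 to 14084 in ethanol rats, and Bhlha15, another one, at 6344 to 6848 and 5584 to 8162.

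The other aquaporins had smaller differences. Aqp1, the water channel of ducts and capillaries, was at 964 ± 176 and 1007 ± 92.7 (log2 change 0.070, 95% interval -0.31 to 0.45), and its other probe set gave 0.12. Aqp5, a channel of secretory epithelia, was below the filter, with 514, 238 and 307 in control rats and 298, 373 and 448 in ethanol rats. Chosen after their values were seen, Aqp7 (0.11, SE 0.15) and Aqp9 (0.32, SE 0.19), channels that also pass glycerol, overlapped between diets. Aqp6, also below the filter and outside the rule, read 279, 316 and 136 in control rats and 478, 394 and 394 in ethanol rats. It is 1 of the 9 genes that came in through 1 diet group.

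Among epithelial sodium channel subunits, limma called 0 of the 2 tested, against 0.347% of all tested probe sets (unadjusted p under 0.05 in 1, which was higher, against 18.3%). Scnn1g, the gamma subunit, read 2108, 1827 and 1722 in control rats and 3216, 2174 and 2844 in ethanol rats. The groups did not overlap, though ethanol replicate 2 lay just above control replicate 1 (0.52, SE 0.18, limma adjusted p = 0.193). A dimmer probe set of Scnn1g read 829, 876 and 770 and then 1388, 1004 and 1057, likewise without overlap (0.44, SE 0.16, limma adjusted p = 0.210). Scnn1b, the beta subunit, was even in control rats at 2356, 2417 and 2435 and read 3510, 2210 and 3445 in ethanol rats, where replicate 2 lay below the control range (0.31, SE 0.20). Scnn1a, the alpha subunit, was near the limit of the set at 278 ± 42.0 and 328 ± 102 (0.18, SE 0.23) and came in through the ethanol group, and its other probe set, with values below 0, gave -0.74 (SE 0.69). In Scnn1b, Scnn1g and Atp1b1 alike, ethanol replicates 1 and 3 were the higher and replicate 2 the lowest of the ethanol arrays.

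Potassium channels and their subunits made up 46 of the 89 genes. Of the 34 tested limma called 0, while 6 had an unadjusted p under 0.05 (5 higher, 1 lower), or 17.6% against 18.3% of all tested probe sets. The groups did not overlap in 4, all higher in ethanol rats, which is 11.8% against 25.5%. The median log2 change was 0.11 over the 41 with both diet means at 300 or above. The mean of 23 of the 46 lay under 552, the median of all probe set means, and at such intensities these values do not show that the channel is expressed.

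Of the channels tied to secretion, Kcnq1 and Kcne1 form a potassium channel of acinar cells. Kcnq1, the pore, was at 2653 ± 108 and 2640 ± 280.04 in control and ethanol rats (log2 change -0.012, 95% interval -0.34 to 0.31). Kcne1, its partner, read 4477, 4478 and 5720 and then 7039, 3872 and 3649, so that ethanol replicate 1 was above the control range and the others below it (-0.067, SE 0.26). Kcnma1, the calcium-activated channel of large conductance, was at 412 ± 173 and 423 ± 25.2 (0.093, SE 0.24), and the sodium-activated Kcnt1 at 766 ± 76.0 and 900.3 ± 271 (0.18, SE 0.23).

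Auxiliary subunits gave the potassium channel gene of smallest p. Kcnip2, a calcium-binding partner of Kcnd channels, read 832, 741 and 771 in control rats and 1065, 1130 and 1201 in ethanol rats, both groups narrow and apart. The means were 781 ± 46.4 and 1132 ± 68.0 (SD, n = 3), and the log2 change was 0.51 (SE 0.13, limma adjusted p = 0.130). Its 2 dimmer probe sets disagreed, with log2 changes of -0.096 (SE 0.30) and 0.53 (SE 0.14). Kcnip3, a related calcium sensor that also binds DNA, was at 1899 ± 329 and 2606 ± 518 (0.44, SE 0.20), while its dimmer probe set gave -0.75 (SE 0.53). The channels that Kcnip2 partners, chosen after their values were seen save Kcnd1, gave 0.32 (SE 0.18) for Kcnd2, -0.26 (SE 0.26) for Kcnd1 and -1.12 (SE 0.58) for Kcnd3, which lay under the limit of 300.

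Among two-pore-domain channels, which carry background potassium currents, Kcnk3 read 3793, 3576 and 4148 in control rats and 4688, 4557 and 5224 in ethanol rats. The groups lay apart by less than their own range (log2 change 0.33, SE 0.14, limma adjusted p = 0.267). Its other probe sets gave 0.10 (SE 0.16) and 0.22 (SE 0.13). For Kcnk6 the probe sets went apart. The brighter was at 1648 ± 359 and 1733 ± 151 (0.089, SE 0.19), while the dimmer read 537, 555 and 652 in control rats and 390, 254 and 127 in ethanol rats, without overlap (-1.13, SE 0.30, limma adjusted p = 0.133).

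Voltage-gated channels numbered 21, with a median log2 change of 0.024, and of the 16 tested 4 had an unadjusted limma p under 0.05, or 25% against 18.3% of all tested probe sets, 3 of them higher. Kcnh4, a channel known from brain, read 1335, 844 and 1515 in control rats and 2024, 1746 and 1609 in ethanol rats, without overlap (0.56, SE 0.22). Kcng2, a subunit that modifies other channels, read 445, 337 and 390 and then 545, 607 and 486, also without overlap (0.44, SE 0.16). Dimmer probe sets of Kcng2, below the filter, overlapped between diets at 0.52 (SE 0.79) and 0.26 (SE 0.70). Kcns1, another modifying subunit, overlapped at 868 ± 203 and 1373 ± 421 (0.62, SE 0.26). The limma adjusted p of these 3 genes lay from 0.199 to 0.254.

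Kcnc4 read 658, 364 and 524 in control rats and 404, 262 and 333 in ethanol rats, lower on the whole but overlapping (-0.54, SE 0.23). Kcnh2, the channel of cardiac repolarisation, was at 775 ± 229 and 536 ± 293 (-0.63, SE 0.43), with the lowest value, 198, on ethanol replicate 2, without which the log2 change was -0.091. Kcnh3 was at 2933 ± 101 and 2666 ± 657 (-0.17, SE 0.20), and Kcnh6, near the limit of the set, at 341 ± 168 and 288 ± 231. Kcna1, chosen after its values were seen, had the largest log2 change of the 89 genes, 1.13 (SE 0.36), but was below the filter at 87, 258 and 238 in control rats and 515, 512 and 348 in ethanol rats, and is another of the 9 genes that came in through 1 diet group.

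Inward rectifiers gave small differences of both signs. Of 10 genes, 5 had log2 changes above 0 and 5 below, from -0.15 to 0.42, and limma called 0 of 7 tested, against 0.347% of all tested probe sets (unadjusted p under 0.05 in 0, against 18.3%). The value of 0.42 belonged to Kcnj2, chosen after its values were seen and below the filter. With a mean of 295 in control rats it is 1 of the 9 genes that came in through 1 diet group, and it counts among the 5 above 0. Kcnj11, the pore of the ATP-sensitive channel of beta cells, was at 652 ± 126 and 641 ± 113 (-0.021, 95% interval -0.45 to 0.41). Islet markers, 9 measured of 12 listed, overlapped between diets with sums of 149012 to 182668 and 116130 to 182517, and the hormone-processing protease Pcsk2 had values below 0. Kcnj4 was at 1090.3 ± 176 and 1322 ± 256 (0.26, SE 0.20), and Kcnj5 at 1156 ± 97.1 and 1050.0 ± 240.2 (-0.15, SE 0.19). A second probe set of Kcnj5 ranged from -380 to 1358. Chosen after its values were seen, a second probe set of Kcnj6 read 510, 647 and 668 in control rats and 483, 363 and 360 in ethanol rats, without overlap (-0.54, SE 0.17), while the brighter one gave -0.12 (SE 0.32).

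Many of these potassium channels are known from nerve, and the summed intensity of nerve and glia markers was higher on the ethanol arrays. Of 8 listed, 6 were measured, and their sum was 2050 to 2805 in control rats and 3212 to 4170 in ethanol rats (two-sided exact permutation p = 0.1, the smallest possible, and 0.333 adjusted over 10 lists). Tubb3, a neuronal tubulin, was the 1 of 4 tested with an unadjusted limma p under 0.05, at 213 to 431 and 467 to 1072. Of all tested probe sets, 18.3% had such a p. The neuronal genes Snap25 (0.12, SE 0.39) and Stmn2 (-0.099, SE 0.31) overlapped between diets. So did Gfap, the brightest of the 6 (0.41, SE 0.23), Th (0.63, SE 0.29) and S100b (0.21, SE 0.20). None of the 6 was at 0. The sum was highest on ethanol replicate 1, at 4170, the array that also held the highest value of 29 of the 89 genes. Their part in the potassium channel values was not tested.

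**Figure D4:**
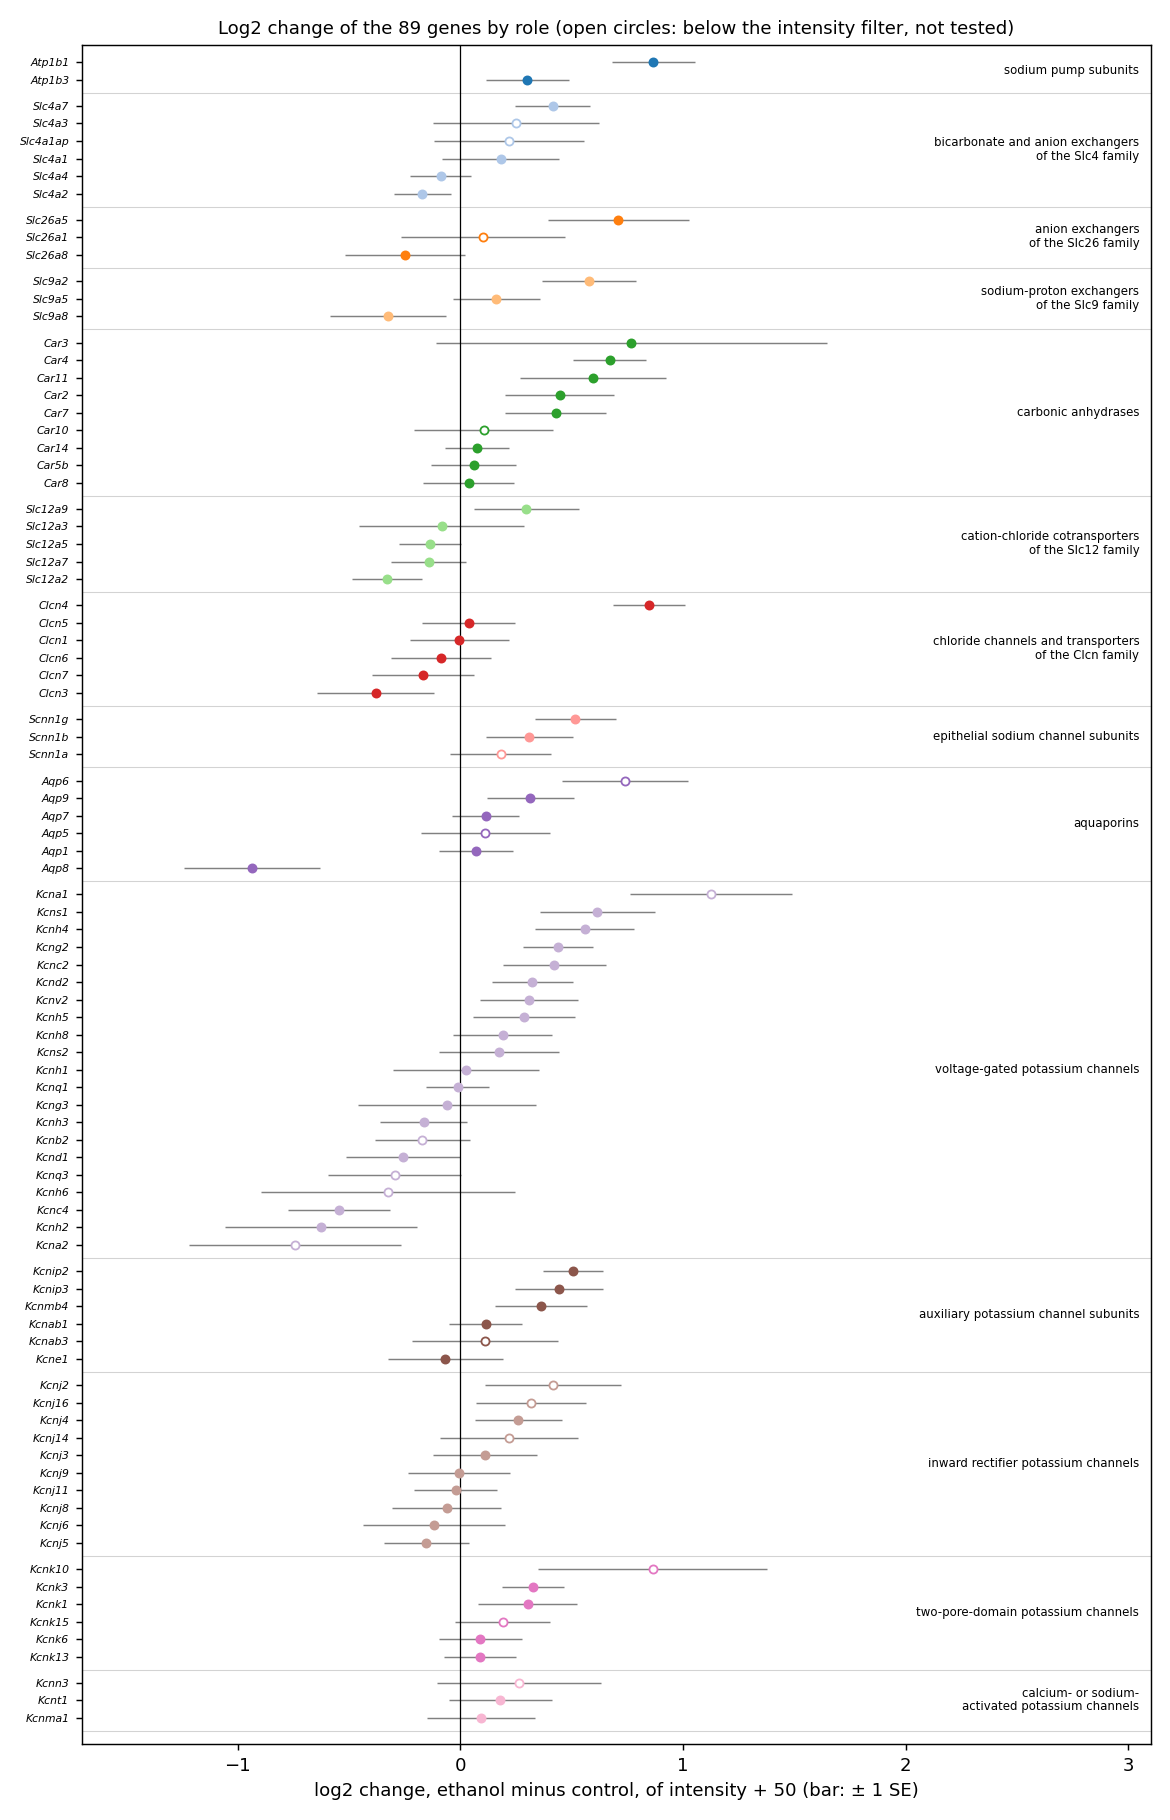
Log2 change of each of the 89 genes (x axis, ethanol minus control on log2(intensity + 50), bars ± 1 SE), grouped by role; filled circles were tested and open circles lay below the intensity filter. Atp1b1 (0.87) and Clcn4 (0.85) stand at the upper end of the tested genes and Aqp8 (-0.94) at the lower end, all 9 carbonic anhydrases lie above 0, and no gene passed limma's test at an adjusted p under 0.05.

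Agreement between probe sets of a gene was partial. Of the 89 genes, 28 had further probe sets, 41 in all, and 27 of the 41 had the sign of the brightest one. Among the 14 of them above the filter, 11 had the same sign.

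Other genes of fluid secretion, which regulate or accompany these transporters, were read from a list of 68, of which 54 had a probe set of their own and 38 were tested. Limma called 0 of the 38 (0.347% of all tested probe sets), while 6 had an unadjusted p under 0.05 (2 higher, 4 lower), or 15.8% against 18.3%. The median log2 change of the 54 was 0.013. Ezr, ezrin, which ties apical membrane proteins to actin, was at 1824 ± 136 and 1164 ± 178 in control and ethanol rats, without overlap (log2 change -0.63, SE 0.16, limma adjusted p = 0.113). Lrrc8d, a subunit of the volume-regulated anion channel, was at 671 ± 48.0 and 374 ± 175, without overlap (-0.84, SE 0.27, limma adjusted p = 0.169). Clns1a, once described as a chloride channel regulator and known as a part of the spliceosome assembly machinery, was at 2466 ± 197 and 1850.0 ± 34.4, without overlap (-0.40, SE 0.13, limma adjusted p = 0.179).

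The remaining 3 regulators at an unadjusted limma p under 0.05 were chosen after their values were seen. Fxyd7, a small regulator of the sodium pump, was at 2057 ± 675 and 3339 ± 448 (0.73, SE 0.25). The muscarinic receptor Chrm3, which receives the nerve signal for secretion, was at 923 ± 111 and 1227 ± 164 (0.39, SE 0.16). Ano6, a scramblase and ion channel, was at 3216 ± 948 and 2090.3 ± 86.6 (-0.56, SE 0.23). The receptor for secretin, Sctr, likewise chosen afterwards, was at 3136 ± 236 and 3882 ± 849 with overlap (0.28, SE 0.19).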

How the data were processed

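Pancreas RNA was measured on 6 arrays, with 3 replicates per diet. The authors deposited whole-number intensities on a linear scale, 1 per probe set and array. Values below 0 show that background had been subtracted, and near-equal medians that arrays had been scaled; the scanner, software and normalization method were not stated in the sources used here. A diet effect on total RNA per sample would not show in such values.

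Of 15923 probe sets, 57 controls were left out. Gene names came from the platform annotation, and all 89 symbols were unchanged in RefSeq. Values below 0 were set to 0, 50 was added and the log2 taken. A mean intensity of at least the 40th percentile (406) was required for testing, which left 9522 probe sets, with limma 3.58.1 in R 4.3.3, 2 groups and no block, and Benjamini-Hochberg adjustment over all of them; adjusted p under 0.05 was a call. Genes below the filter have log2 changes and standard errors from a fit to all probe sets, and no p.

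The genes, lists and tests were chosen with earlier results of these data known. Named genes are the 10 of smallest p per direction, the 2 of highest mean per role, a set fixed by name, those beside the limit of 300 and 3 regulators; others are marked as chosen after their values were seen. Alternatives were other constants, normalization, filters, variance trend, a replicate block, probe set means and each array left out. The procedure was tested on simulated data.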

Additional observations from a re-analysis of the deposited data

How the results depend on the processing

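The count of all probe sets called by limma, 33, was 11 with a constant of 20, 52 with a constant of 100, 16 with quantile normalization, 0 with all probe sets tested (2263 had an unadjusted p under 0.05), 130 with the filter raised to the 60th percentile, 242 with a variance trend, 188 at an adjusted p under 0.10, and 2 to 43 with single arrays left out. With a filter on the mean log2 value, chosen after seeing the data, it was 39. The count of channel and transporter genes called was 2, Clcn4 and Atp1b1, with the filter so raised, a variance trend or an adjusted p under 0.10. It was 0 under the other alternatives run. Those 2 were out of 39 genes tested with the raised filter, where 130 probe sets were called in all. With a variance trend or an adjusted p under 0.10 they were out of 70 genes, beside 242 or 188 of 9522 probe sets. The count at an unadjusted p under 0.05, 13, ran from 8 to 15 with single arrays left out, while the share of all tested probe sets ran from 12.9% to 17.9%. Regulators stayed at 0 calls throughout. The labels number the replicates in both diets, but same-numbered arrays did not deviate together (r of -0.037, 0.024 and -0.15); with a replicate block limma called 5 probe sets and 0 of the channel and transporter genes.

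No named gene with an unadjusted limma p under 0.05 changed sign under any of the 15 alternatives, and 16 of the other 32 did under at least 1. Filters, a variance trend and a replicate block leave a log2 change as it is, so its sign could not change there. Where groups did not overlap, leaving out a single array could not turn the sign either. This contrast was thus largely fixed by the choice on p, and no conclusion is drawn from it. Averaged over each gene's probe sets, log2 changes were -0.15 for Kcnip3, -0.52 for Kcnk6 and -0.28 for Scnn1a, with the sign turned, and -1.05 for Kcnj5, 0.79 for Slc4a1, -0.39 for Kcnj11, 0.31 for Kcnip2 and -0.16 for Clcn3, with the sign kept. With single arrays left out, they ran from -0.51 to 0.016 for Slc26a8, -0.00075 to 0.21 for Aqp1, -0.37 to 0.10 for Kcne1, -0.096 to 0.44 for Slc4a1, -0.067 to 0.38 for Kcnma1, -0.44 to 1.38 for Car3, -0.29 to 0.033 for Kcnj5, -0.030 to 0.33 for Slc9a5, -0.083 to 0.23 for Kcnk6, -0.32 to 0.036 for Kcnh3, -0.096 to 0.032 for Kcnq1, -0.10 to 0.38 for Aqp5, -0.15 to 0.12 for Kcnj11, -0.022 to 0.36 for Scnn1a and -0.85 to 0.042 for Kcnh6. The cause was not tested.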

Other observations

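Of the 134 genes with a matching symbol, 45 had a mean under 300, and 22 of these had a value at or below 0 on at least 1 array. Among them were genes known from duct secretion: the chloride channel Clcn2, with values from 87 to 280, the calcium-activated potassium channel Kcnn4, with 89 to 251, the two-pore-domain channel Kcnk5, with -17 to 336, and the anion exchanger Slc26a3, with -20 to 122. Such intensities do not show that a gene is expressed. Chosen after their values were seen, 2 of the 45 genes had groups that did not overlap, both lower in ethanol rats, where 25.5% of the tested probe sets did not overlap and 14.4% were lower without overlap. The sulfate transporter Slc26a2 read 110, 109 and 138 in control rats and 4, -52 and -88 in ethanol rats, and the channel Kcnk2 read 132, 154 and 149 and then 35, 16 and 108.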
